A study of Mus musculus with 47 samples.

Results

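H3K27me3 regions of control male and control female mouse liver were compared on the 19 autosomes. The members are the 16806 regions of the control male list and the 17188 regions of the control female list, 33994 of the 68388 regions that the 4 deposited H3K27me3 lists hold over all chromosomes. Each list comes from 4 livers of mice aged 7 weeks that carry the floxed allele Ezh2 f/f and no Cre, so both groups keep Ezh1 and Ezh2. Chromatin from whole liver tissue was precipitated with the H3K27me3 antibody ab6002, and the authors called regions on the reads of all 4 livers of a group together. A group is therefore 1 list with no replicate, and differences between the lists carry no measure of how much livers of a group vary. For context, the lists of E1/E2-KO livers (Ezh1-/-, Ezh2 f/f, with Cre under the albumin promoter, which is active in hepatocytes but not in the other cells of the liver) and the control H3K27ac and H3K4me1 lists were used. The numbers of reads behind the lists are not given in the sources used here, so a difference in depth and a difference in the mark cannot be told apart. In bulk tissue, the same holds for a change in the share of a cell type and a change of the mark within its cells.

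H3K27me3, trimethylation of lysine 27 of histone H3, is written by the polycomb repressive complex PRC2, whose catalytic subunit is Ezh1 or Ezh2. The mark lies in broad domains over genes that are silent in a cell type, and H3K27ac, a mark of active enhancers and promoters, sits on the same lysine, so a histone tail cannot carry both there. Many liver genes of drug, steroid and lipid metabolism are expressed at different levels in males and females. Growth hormone from the pituitary, which males release in bursts and females more steadily, sets much of this difference.

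The promoters of 5 genes that lead the gene results are shown first, as the 300 bases before the annotated transcription start in the mm9 genome, read from the NCBIM37 assembly and written in the direction of transcription with each CpG pair in capitals. PRC2 is best known for settling on CpG-rich promoters of silent genes. Nt5e (chr9:88222147-88222446, plus strand) and Nipal1 (chr5:73038735-73039034, plus strand) lead the female-biased genes that were covered in the male list alone. Capn8 (chr1:184494838-184495137, plus strand) and Sdf2l1 (chr16:17132477-17132776, minus strand) lead the male-biased genes with more coverage in the female list. Hoxd11 (chr2:74517149-74517448, plus strand) stands for genes covered entirely in both lists.
Nt5e: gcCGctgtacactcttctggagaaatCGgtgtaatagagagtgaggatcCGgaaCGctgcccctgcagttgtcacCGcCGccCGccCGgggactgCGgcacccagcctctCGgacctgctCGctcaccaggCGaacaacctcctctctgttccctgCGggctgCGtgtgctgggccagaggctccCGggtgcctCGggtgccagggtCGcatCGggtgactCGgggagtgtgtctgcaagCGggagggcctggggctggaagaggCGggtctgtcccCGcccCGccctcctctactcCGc
Nipal1: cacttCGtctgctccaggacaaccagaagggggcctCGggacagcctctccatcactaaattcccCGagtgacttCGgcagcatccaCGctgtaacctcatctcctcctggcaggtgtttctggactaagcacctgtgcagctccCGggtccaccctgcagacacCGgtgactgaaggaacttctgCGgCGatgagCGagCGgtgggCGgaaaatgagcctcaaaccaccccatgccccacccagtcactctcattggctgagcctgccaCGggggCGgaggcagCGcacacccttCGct
Capn8: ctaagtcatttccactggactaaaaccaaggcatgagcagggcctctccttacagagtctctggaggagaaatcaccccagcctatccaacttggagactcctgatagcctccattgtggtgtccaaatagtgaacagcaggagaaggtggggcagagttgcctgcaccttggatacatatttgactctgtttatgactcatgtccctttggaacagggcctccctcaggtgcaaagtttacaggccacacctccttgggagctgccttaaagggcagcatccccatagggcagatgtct
Sdf2l1: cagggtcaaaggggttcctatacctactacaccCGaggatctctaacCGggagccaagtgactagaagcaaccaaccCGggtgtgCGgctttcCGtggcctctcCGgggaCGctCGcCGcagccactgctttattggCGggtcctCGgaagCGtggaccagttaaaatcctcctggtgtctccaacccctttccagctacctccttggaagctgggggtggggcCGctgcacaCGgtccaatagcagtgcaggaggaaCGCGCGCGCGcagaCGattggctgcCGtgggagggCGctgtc
Hoxd11: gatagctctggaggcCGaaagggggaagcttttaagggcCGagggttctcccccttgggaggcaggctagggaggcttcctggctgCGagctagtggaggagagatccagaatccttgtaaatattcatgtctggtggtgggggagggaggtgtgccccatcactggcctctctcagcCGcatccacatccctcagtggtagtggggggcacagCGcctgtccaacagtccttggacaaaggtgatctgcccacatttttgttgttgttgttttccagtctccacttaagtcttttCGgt
The Nt5e window holds 24 CpG pairs, Nipal1 16, Sdf2l1 22, Hoxd11 6 and Capn8 none. Over the same window of 21412 coding genes the median was 10 pairs, and 6.03% of windows had none. Of genes with coverage at least 25 percentage points higher in the male list, 43.4% had 10 or more pairs, against 43.5% of genes covered over 50% or more of their span in both lists, 37.5% of those higher in the female list and 50.4% of all genes. Among the 99 genes that are female-biased in the study's table and higher in the male list, the set that Nt5e and Nipal1 come from, the share was 52.5%. It was 42.9% of 597 female-biased genes.

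The labelled tissue was checked on marker genes, since the mark is known to lie on silent genes and not on expressed ones. No region of either list touched any of the 10 hepatocyte markers, among them the albumin gene Alb, the urea cycle enzyme gene Cps1 and the transcription factor gene Hnf4a. Of 9 matched genes listed as markers of tissues other than liver, 8 were covered over at least 50% of their span in both lists. The exception was Gata4 (34.8% in the male and 43.6% in the female list). Whether liver expresses any of the 9 was not checked here. The muscle factor Myod1, the neural factors Neurod1 and Olig2, and Hoxd11 were covered entirely in both. Markers of other cells of the liver were mostly covered. Coverage was at least 50% in both lists for 6 of 7 stellate cell markers, 5 of 5 cholangiocyte markers and 3 of 5 matched Kupffer cell markers. Of 6 lymphocyte markers 5 reached 50% in each list, 2 were at least 25 points higher in the male list (Ms4a1, 86.6% against 0%, and Ptprc, 99.3% against 73.1%) and 1 in the female list (Cd4, 49.7% against 100%). Epcam, a cholangiocyte marker, was covered over 100% and 70.6%. Of 8 endothelial markers 3 were covered at least 25 points more in the male list and none in the female list, against 6.66% and 2.38% of all coding genes. The scavenger receptor gene Stab1 was covered over 100% of its span in the male list and 39.2% in the female list, the cadherin gene Cdh5 over 100% and 61.8%, and the angiopoietin receptor gene Tek over 34.2% and 0%. The other 5 did not reach 25 points. Kdr, the main receptor for vascular endothelial growth factor, was covered entirely in both, Vwf over 96.9% and 98.3%, Stab2 over 87.3% and 64.2%, Pecam1 over 100% and 87.6%, and Lyve1 in neither. The mean coverage of the 8 endothelial genes was 77.3% in the male list and 56.4% in the female list, and the part of endothelial cells in the differences described here was not tested.

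Regions that overlap no region of the other sex were more frequent in the male list. 3717 of 16806 male regions (22.1%, Wilson 95% interval 21.5 to 22.8) had no female region within them by 1 bp, and 1806 of 17188 female regions did the same in the other direction (10.5%, interval 10.1 to 11.0). These intervals, and those below, cover counting error only, and neighbouring regions are not independent. The order of the shares differed between settings. When only the narrowest male regions were dropped until both lists covered 630 Mb, which changes the widths of the male list together with its covered bases, 9.25% of the remaining male regions and 33.8% of the female regions had no overlap. The order of the region shares was thus reversed by that setting, whereas it was kept in the widest 50% of each list (23.1% against 14.8%). It was level at 22.1% in each list when chromosome X was added.

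Width separated shared regions from those of a single list. Male-only regions had a median width of 20000 bp (10th to 90th percentile 11600 to 35200), against 36000 bp (15200 to 105200) for shared male regions. Female-only regions had a median of 15200 bp (8000 to 24000), against 26000 bp (12800 to 76400) for shared ones. The share without overlap fell with width in both lists. Among male regions it was 43.0% (interval 41.5 to 44.6) at widths of 10 to 20 kb, 22.3% at 20 to 50 kb, 2.82% at 50 to 100 kb, and 0.259% at 100 to 200 kb, and it was 0 of 307 regions from 200 kb on. Among female regions it was 19.4% (18.4 to 20.5) at 10 to 20 kb and 5.69% at 20 to 50 kb, and none of the 3172 female regions of 50 kb or more lacked a male partner. Below 10 kb it was 41.5% of male (37.2 to 45.9) and 33.4% of female regions (30.4 to 36.5). In each width class below 100 kb the male share was thus the higher one, with intervals that do not overlap.

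**Figure D1:**
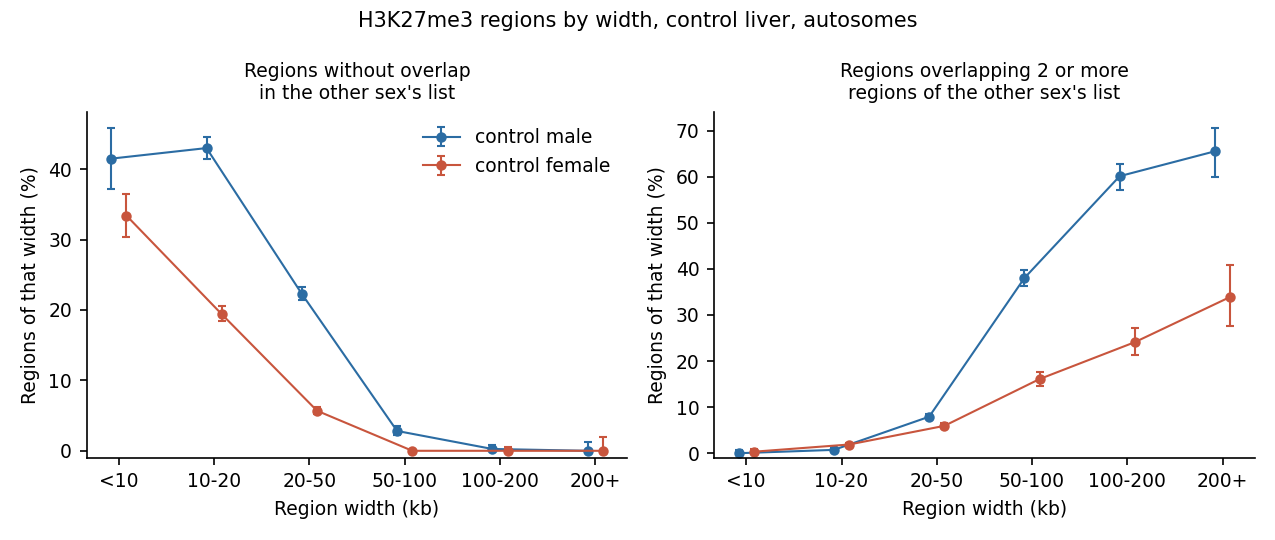
Share of H3K27me3 regions without overlap in the other sex's list (left) and of regions that overlap 2 or more regions of the other list (right), in percent of the regions of each width class in kb, for control male (blue) and control female (red) liver. Bars are Wilson 95% intervals. The share without overlap falls from 43.0% at 10 to 20 kb to 0.259% at 100 to 200 kb in the male list, while the share that is split rises to 65.5% of male and 33.9% of female regions from 200 kb on.

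Most bases found in a single list lay beside regions that both sexes have. The lists share 567 Mb, which is 74.0% of the male and 89.9% of the female bases. Of the 199 Mb found in the male list alone, 82.1 Mb were whole male-only regions, 92.9 Mb were ends of shared regions that reach beyond the female region, and 23.7 Mb were gaps between female regions inside 1 male region. Of the 63.5 Mb in the female list alone, the same parts were 28.5, 29.4 and 5.54 Mb. Ends thus made up 46.8% of the male and 46.3% of the female excess. A single unshared end was short, with a median of 4000 bp in the male list (n = 13641) and 2400 bp in the female list (n = 6942). Only 45 male ends and no female end reached 50 kb.

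**Figure D2:**
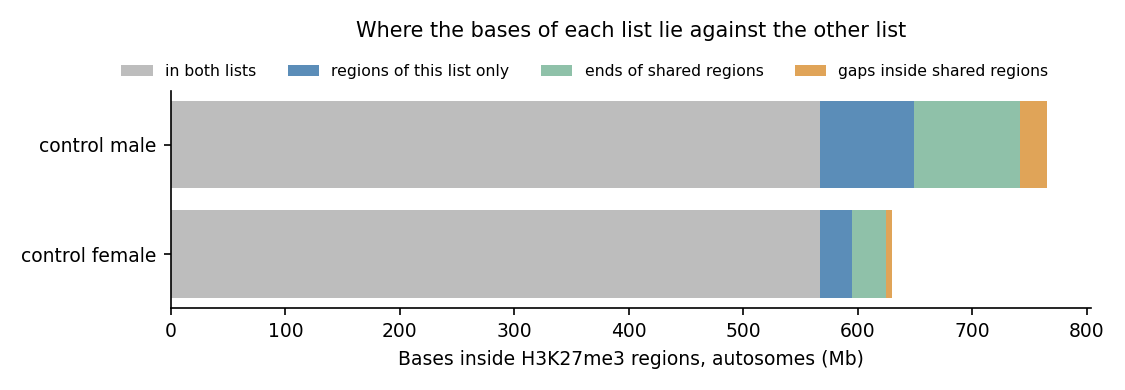
Bases inside H3K27me3 regions on the autosomes, in Mb, for the control male and control female lists, divided into bases in both lists, whole regions of that list only, ends of shared regions beyond the other list, and gaps of the other list inside shared regions. The shared part is 567 Mb in both bars, and each of the 3 other parts is longer in the male bar.

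Wide male regions were divided in the female list more often than the other way round. 2716 male regions (16.2%, interval 15.6 to 16.7) overlapped 2 or more female regions and 1162 female regions (6.76%, 6.39 to 7.15) overlapped 2 or more male regions. The divided male regions had a median width of 75400 bp, against 30400 bp for male regions with 1 female partner, and the divided female regions had 52000 bp, against 24800 bp. From 200 kb on, 65.5% of 307 male regions (60 to 70.6) and 33.9% of 189 female regions (27.5 to 40.9) were divided. Most divisions were into 2 pieces (2108 male and 1097 female regions), and 147 male but only 4 female regions met 4 or more pieces. The gaps were narrow. The median gap was 3600 bp in the male regions (n = 3525) and 3200 bp in the female regions (n = 1232), while 19.9% and 9.42% of gaps, respectively, were wider than 10 kb. The caller was set to bridge gaps of up to 2400 bp, yet 24.8% of the female gaps inside male regions were 2400 bp or less, and within a list 803 male and 1054 female regions lay that close to the next. Regions that close were thus not always joined in the deposited lists. When regions within 10 kb of each other were joined first, 1491 of 11542 joined male and 488 of 11604 joined female regions were divided. Joined over both lists, the regions formed 17380 blocks. 8857 blocks held exactly 1 male and 1 female region, 1929 held 1 male and 2 or more female regions, 464 held 2 or more male regions and 1 female region, and 607 held 2 or more of both.

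The most divided male regions held at most 1 coding gene each. A male region of 275600 bp at chr15:86671601-86947200, with no coding gene, met 8 female regions that covered 84.9% of it. Another of 242000 bp at chr16:6712001-6954000, inside the neuronal splicing factor gene Rbfox1, also met 8, which covered 88.4%. The next, of 297200 bp at chr5:99922801-100220000 over A930011G23Rik, met 7. In the other direction the widest female region, 927600 bp at chr9:60728801-61656400 around the corepressor gene Tle3, met 5 male regions that covered 92.6% of it. The female regions next in line, each meeting 4 male regions, held the glutathione transferase genes Gsto1 and Gsto2 (294000 bp on chromosome 19) and the small GTPase gene Arl4c (179600 bp on chromosome 1). In these 6 regions the other list covered 84.3% to 95.4%. They were selected as the most divided ones, so the interruptions themselves are no result.

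The widest male-only regions were 116400 bp at chr1:189549601-189666000 in Esrrg, an orphan nuclear receptor gene, 111200 bp at chr7:119925601-120036800 at Tead1, the gene of a transcription factor of the Hippo pathway, and 106000 bp at chr19:17534001-17640000 in Pcsk5, a proprotein convertase gene. Next came 89600 bp at chr4:22838401-22928000 and 81600 bp at chr1:80788801-80870400, both without a coding gene. The nearest female region was 58400 bp from the Esrrg region, 13200 bp from the Tead1 region and 400000 bp from the chromosome 4 region. The widest female-only regions were narrower. They spanned 44000 bp at chr5:126258001-126302000 in Tmem132b, 42400 bp at chr17:32779601-32822000 around Cyp4f40, 42000 bp at chr8:121303201-121345200 in the cadherin gene Cdh13, 41200 bp at chr5:25327201-25368400 at Actr3b, and 40800 bp at chr8:98523601-98564400 with no coding gene. Coverage in the E1/E2-KO lists varied within both groups of 5. The Esrrg and chromosome 4 male-only regions and the Tmem132b female-only region had no base in either knockout list. The male-only region at chr1:80788801-80870400 was covered over 95% in E1/E2-KO males and 47% in E1/E2-KO females, and the E1/E2-KO male list covered the Cyp4f40, Cdh13 and Actr3b regions entirely. The median distance from a male-only region to the nearest female region was 37200 bp and from a female-only region to the nearest male region 17600 bp, and 24.7% of male-only but 10.1% of female-only regions lay more than 100 kb away.

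Regions of a single list held a coding transcription start less often than shared regions. A coding transcription start lay in 267 of 3717 male-only regions (7.18%) and 5004 of 13089 shared male regions (38.2%), and in 239 of 1806 female-only (13.2%) and 4946 of 15382 shared female regions (32.2%). The density was 3.68 coding starts per Mb in male-only regions, below the 8.66 of all autosomes, against 9.28 per Mb in female-only regions and 10.9 and 11.6 in the shared ones. The gap differed between width classes. At 10 to 20 kb, where 1069 of the 1806 female-only regions lie, 13.8% of female-only (11.8 to 15.9) and 19.9% of shared female regions (18.7 to 21.1) held a coding start, as did 6.70% of male-only (5.59 to 8.01) and 24.8% of shared male regions (23.0 to 26.7). From 20 to 50 kb, 7.51% of male-only (6.37 to 8.83) and 32.9% of shared male regions (31.7 to 34.1) held a coding start, as did 8.10% of female-only (5.88 to 11.1) and 30.5% of shared female regions (29.4 to 31.5). Sequence composition followed. G and C made up 40.5% of male-only and 44.6% of shared male bases, 43.0% of female-only and 44.9% of shared female bases, and 41.9% of the autosomes. CpG pairs numbered 6.89 per kb in male-only regions and 8.81 in female-only regions, against 10.4 and 10.6 in shared ones and 8.51 over the autosomes. The share of bases inside coding genes was 32.6% in male-only and 31.2% in female-only regions, against 40.4% and 40.1% in the shared ones and 38.4% over the autosomes. Male-only regions were thus below the genome in G and C, in coding starts and in gene bases, and female-only regions were below it in gene bases but not in coding starts.

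The same trend appeared between chromosomes. The share of male-only regions was lowest on the gene-dense chromosomes 11 (15.8%), 7 (16.4%) and 9 (16.9%) and highest on chromosomes 3 (27.1%), 10 (26.8%) and 16 (26.7%). Over the 19 autosomes, which all come from the same pair of lists, the male-only share fell with the density of coding starts. The Spearman rho was -0.85 and the Pearson r -0.87. The share of female-only regions varied less, from 8.36% on chromosome 19 to 12.1% on chromosome 15, with a rho of -0.29 and an r of -0.44. These coefficients describe chromosomes of 2 lists and were not tested.

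Regions of a single list were less often found in the knockout lists, which took no part in defining them. A region of the E1/E2-KO male list overlapped 39.2% of male-only and 85.3% of shared male regions, and 53.8% of female-only and 84.7% of shared female regions. In the E1/E2-KO female list the shares were 31.8%, 78.9%, 39.3% and 77.4%. At widths of 20 to 50 kb the E1/E2-KO male list overlapped 45.1% of male-only (42.8 to 47.4) and 83.9% of shared male regions (83.0 to 84.8), and 60.4% of female-only (55.7 to 64.9) and 87.8% of shared female regions (87.0 to 88.5). Neither knockout list overlapped 50.7% of male-only and 38.4% of female-only regions, against 10.7% of shared male and 11.3% of shared female regions. More female-only regions met the E1/E2-KO male list than the E1/E2-KO female list (972 against 709 of 1806), and so did more male-only regions (1458 against 1181 of 3717).

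The active marks were less frequent in regions of a single list than in shared regions, with the exception of H3K27ac in narrow female-only regions. Of male-only regions of 20 to 50 kb, 9.54% held a control male H3K27ac peak and 17.1% a control female one, against 19.2% and 31.4% of shared male regions. For female-only regions of that width the shares were 8.56% and 15.0%, against 16.1% and 28.5% of shared female regions. H3K4me1, a mark of enhancers that can precede their activation, was found in 27.3% (male peaks) and 22.8% (female peaks) of male-only regions of that width, against 47.6% and 43.1% of shared male regions, and in 23.8% and 20.8% of female-only regions, against 45.1% and 40.6% of shared female regions. At 10 to 20 kb a control male H3K27ac peak lay in 3.44% of male-only and 12.2% of shared male regions, but in 10.6% of female-only (8.87 to 12.6) and 10.3% of shared female regions (9.49 to 11.3). A control female H3K27ac peak lay in 16.9% of female-only regions of that width (14.8 to 19.3) and 18.9% of shared female regions (17.8 to 20.1). For H3K4me1 at that width, female-only regions stayed below shared female ones, at 26% against 31.3% with male peaks and 21.4% against 27.3% with female peaks. The control female H3K27ac list is longer than the male one over the autosomes (48858 against 28862 peaks), and female peaks outnumbered male ones in each class, female-only regions included. In all male-only regions there were 3.70 male and 9.20 female H3K27ac peaks per Mb, and in all female-only regions 7.95 and 15.3 per Mb. Shared male regions held 5.98 and 13.9 per Mb, shared female regions 5.68 and 13.4, and the autosomes 11.7 and 19.8. Per Mb, H3K27ac peaks were thus fewer in male-only but more numerous in female-only regions than in the shared regions of the same list.

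Genes were compared by the percent of their span inside regions of each list. Of 21418 autosomal coding genes, 11324 met no region in either list and 3532 lay entirely inside regions of both. Coverage was at least 25 percentage points higher in the male list for 1427 genes (6.66% of all genes) and in the female list for 510 genes (2.38%). With the narrowest male regions dropped to bring both lists to 630 Mb, 930 genes were higher in the male and 1530 in the female list, which reverses their order. In the widest 50% of each list the counts were 1376 and 609. The excess of the 1427 genes lay mostly in ends of shared regions for 866 genes (60.7%), in whole male-only regions for 403 (28.2%) and in gaps for the remaining 11.1%. For the 510 genes it lay mostly in whole female-only regions for 249, in ends for 235 and in gaps for 26. Most genes stood alone, and 1050 of the 1219 runs of neighbouring genes higher in the male list held a single gene.

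In all, 298 genes were covered over 100% of their span in the male and 0% in the female list, and 138 the other way round. Such ties were ordered by length, and the 10 longest of the former are named here. The longest was Ankdd1b (55.0 kb, chromosome 13), a gene for an ankyrin repeat protein, with the nearest female region 32.1 kb away. Nt5e (44.5 kb, chr9:88222447-88266927) encodes the ecto-nucleotidase CD73 that makes adenosine outside cells. It lay within a male-only region of 51.2 kb, 80.4 kb from the nearest female region. Socs5, a suppressor of cytokine signalling (29.9 kb), lay in a male region of 119 kb that continues into female regions, and the nearest female region ended 2.62 kb from the gene, so its excess was a gap. The interferon-induced gene Ifit2 (25.7 kb) was 68.8 kb from any female region, the mucin gene Muc13 (25.9 kb) 8.52 kb, and the sugar phosphate exchanger gene Slc37a2 (26.6 kb) 19.5 kb. Pnpla3, which encodes a lipid droplet hydrolase linked to fatty liver (21.7 kb), lay in a male-only region of 36.0 kb, and Nipal1, a magnesium transporter gene (23.3 kb), in the end of a shared region whose female part stopped 0.234 kb short of it. The remaining 2 were Enkur and 2010002N04Rik, 28.2 kb and 70.0 kb from the nearest female region. 8 of the 10 were thus inside whole male-only regions, while Socs5 and Nipal1 border regions that both sexes have.

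The 10 longest of the 138 genes covered over 0% in the male and 100% in the female list were 10.5 to 27.5 kb long, and several are known from tissues other than liver. The milk protein genes Csn1s1 (16.4 kb) and Csn1s2a (14.2 kb) lay in 2 separate female-only regions of 24.4 and 20.4 kb on chromosome 5. Both had no coverage in either knockout list. Other members were the melanocyte gene Mlana (10.5 kb), the peptidase inhibitor genes Spink8 (14.4 kb) and Serpinb6e (11.1 kb), the renal dipeptidase gene Dpep1 (15.6 kb), the cell cycle regulator gene Spdyb (10.6 kb), the class I-like gene Mill2 (18.7 kb), 4930550C14Rik (27.5 kb) and the cytochrome P450 gene Cyp4f40 (17.3 kb). Cyp4f40 lay in the female-only region of 42.4 kb named above, 58.4 kb from the nearest male region. Of these 10 genes 9 had most of their excess in whole female-only regions, the exception being Mill2, 7.60 kb from a male region.

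The study's table of sex-biased liver genes was used as a list of genes to look at. It was chosen by the study from livers of the same design, so the direction found here is not independent evidence. 1057 of its 1131 symbols were matched to autosomal coding genes, and they fell on 1055 genes. Of 598 female-biased genes, 99 (16.6%, interval 13.8 to 19.7) were covered at least 25 points more in the male list and 10 (1.67%, 0.911 to 3.05) in the female list. Over all coding genes these shares were 6.66% and 2.38%. Of 457 male-biased genes, 8 (1.75%, 0.890 to 3.42) were covered more in the male list and 16 (3.50%, 2.17 to 5.61) in the female list. Female-biased genes were covered on average over 35.5% of their span in the male and 25.8% in the female list. The means were 8.26% and 8.76% for male-biased genes and 31.5% and 28.3% over all coding genes. Male-biased genes thus carried less of the mark than all genes in either sex. Of the 457, 330 (72.2%) met no region, against 44.3% of female-biased and 52.9% of all genes. The share of male-biased genes higher in the female list has an interval that holds the 2.38% of all genes. With both lists at 630 Mb, 63 female-biased genes (10.5%) were higher in the male list, against 4.34% of all genes, while 22 male-biased genes (4.81%) were higher in the female list, which is below the 7.14% of all genes at that setting. At a threshold of 50 points, 4 male-biased genes (0.875%) were, against 1.31% of all genes.

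**Figure D3:**
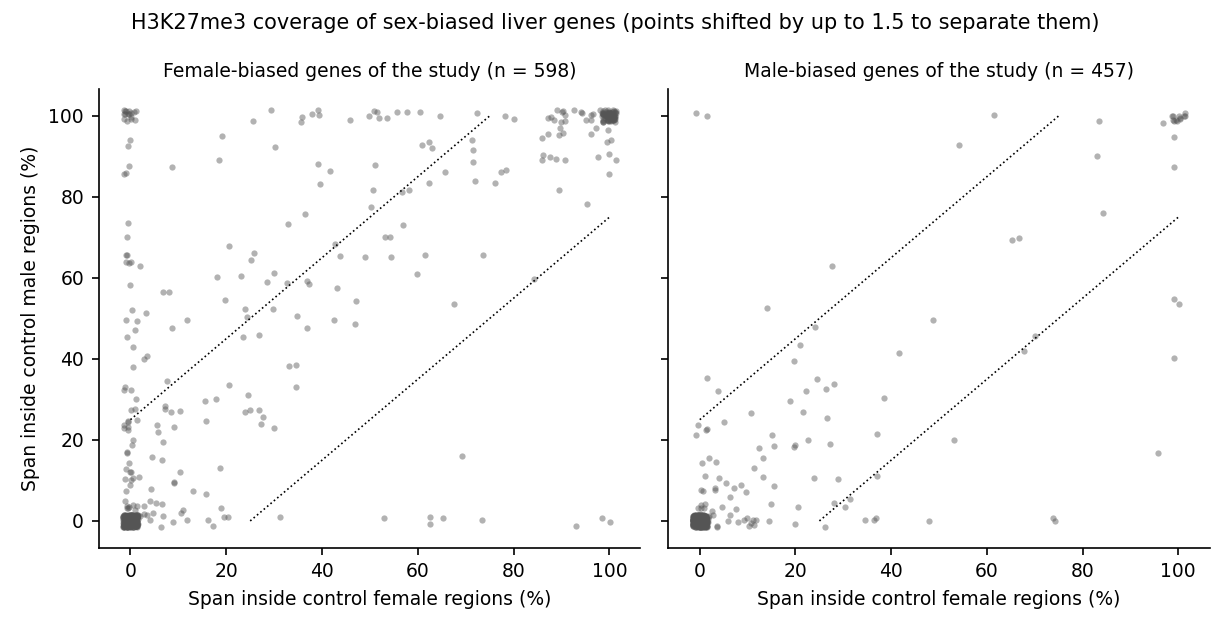
Percent of the span of each sex-biased gene of the study inside control female regions (horizontal axis) and control male regions (vertical axis), for 598 female-biased (left) and 457 male-biased genes (right). Each point is a gene, shifted slightly to separate overlaps, and the dotted lines mark a difference of 25 points. Above the upper line lie 99 female-biased and 8 male-biased genes, and below the lower line 10 and 16.

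Of the female-biased genes 16 (2.68%, interval 1.65 to 4.30) were covered over 100% in the male and 0% in the female list. The share over all coding genes was 1.39%. The 6 longest of the 16 are named here. Besides Nt5e, Nipal1 and Pnpla3 they were Sult3a1, a sulfotransferase gene (15.6 kb), Mfsd2a, a lysophospholipid transporter gene (14.3 kb), and Pdk4, a kinase gene that restrains pyruvate dehydrogenase (13.0 kb). The Sult3a1 region was male-only, 21.6 kb wide, and the nearest female region was 150 kb away. For Pdk4 a male-only region of 37.6 kb stood 43.4 kb from the nearest female region. Mfsd2a lay in a gap within a male region of 128 kb, 2.09 kb from a female region. Control female H3K27ac peaks in the span outnumbered male ones at Nt5e (6 against 1), Nipal1 (5 against 1) and Pnpla3 (4 against 2), and were equal at Mfsd2a (3 and 3), Pdk4 (1 and 1) and Sult3a1 (none in either). Over all coding genes, female H3K27ac peaks outnumbered male ones in 6026 and the reverse held in 705. H3K4me1 peaks differed in the other direction, with more male than female peaks at Nt5e (6 against 5), Nipal1 (5 against 3), Mfsd2a (3 against 0), Pdk4 (4 against 0) and Sult3a1 (1 against 0) and 2 of each at Pnpla3, and over all genes they were more in males in 6005 and in females in 2151. In the knockout lists, Mfsd2a was covered entirely in both sexes and Nt5e over 70.9% in males and 76.3% in females. Nipal1 was covered over 100% in E1/E2-KO males and 67.7% in E1/E2-KO females, and Pnpla3 over 100% and 0%. Pdk4 and Sult3a1 met no region in either knockout list.

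Of the 6 male-biased genes with the largest female excess, 3 had no coverage in the male list. Capn8, a calpain protease gene of 67.3 kb, was covered over 17.9% in the male and 94.7% in the female list, where 2 regions of 50 and 62.4 kb spanned its start and its body. The male region of 83.2 kb covered only the end of the gene. Susd4, a complement regulator gene of 133 kb that lies nearby on chromosome 1, was covered over 0% and 48.8%, in 4 female regions of 8.40 to 34.8 kb. Sdf2l1, a chaperone gene of the endoplasmic reticulum (2.25 kb), had 0% and 74.6%, and the carbonic anhydrase gene Car14 (6.92 kb) 0% and 72.4%. The nearest male region was 0.724 kb from Sdf2l1 and 0.586 kb from Car14. The adhesion gene Cadm4 (22.5 kb) was covered over 39.8% and 100%, and the lipid droplet enzyme gene Hsd17b13 (22.0 kb) over 54.7% and 100%. The E1/E2-KO male list covered Capn8, Sdf2l1, Car14 and Cadm4 entirely, Susd4 over 96.7% and Hsd17b13 over 69.3%. The E1/E2-KO female list covered Cadm4 entirely, Car14 over 95.5%, Capn8 over 95.2%, Susd4 over 74.7% and Hsd17b13 over 65.7%. Sdf2l1 was covered over 0% there. Only Susd4 had most of its excess in whole female-only regions.

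**Figure D4:**
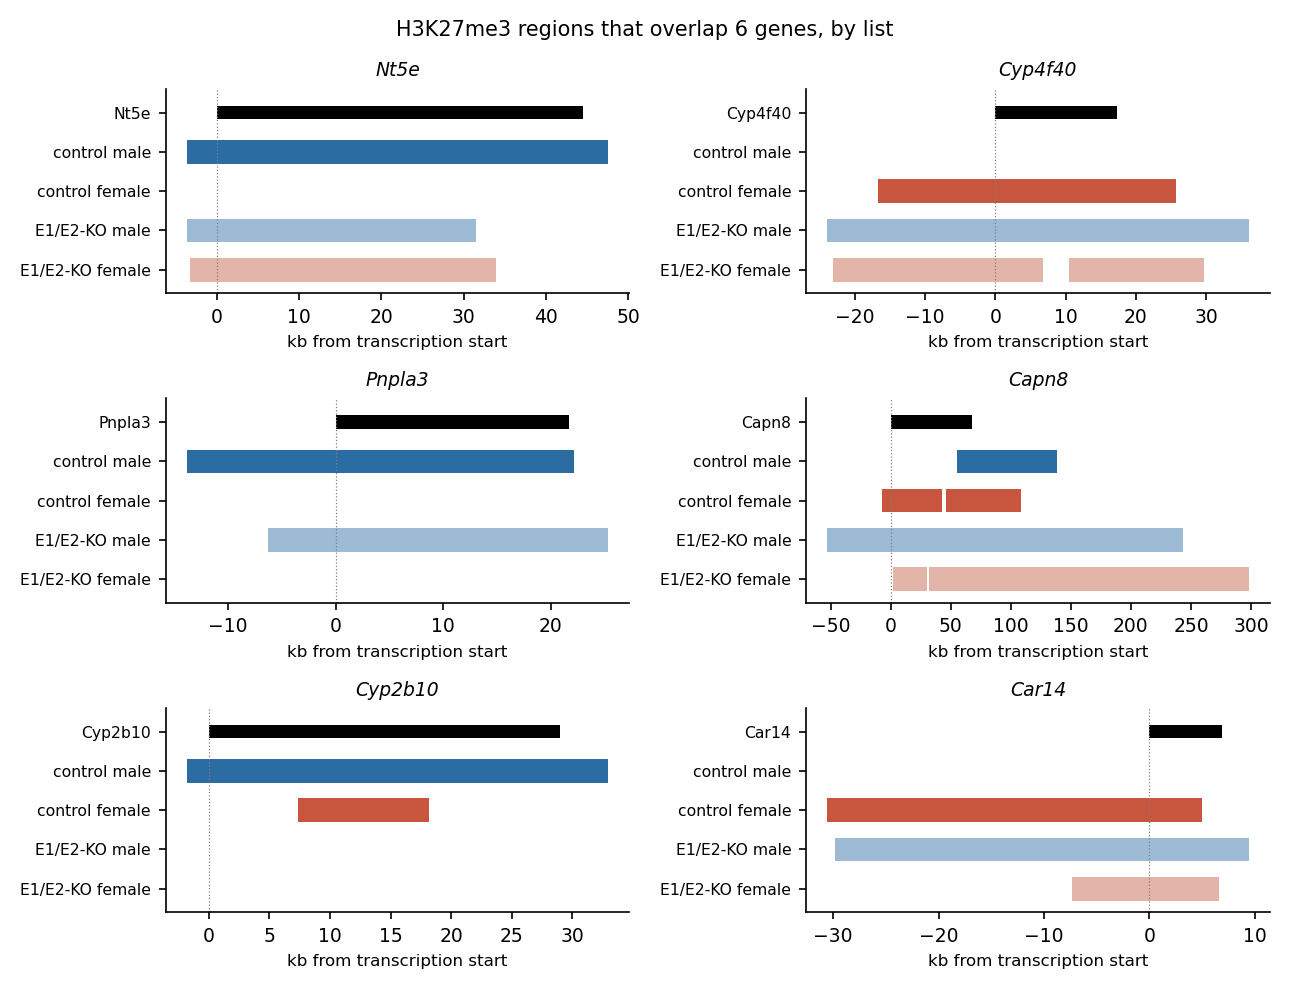
H3K27me3 regions that overlap 6 genes, drawn in kb from the transcription start in the direction of transcription, for control livers and E1/E2-KO livers of both sexes. The black bar is the gene. Regions that do not overlap the gene are not drawn. Nt5e and Pnpla3 meet no control female region and Cyp4f40 and Car14 no control male region, while Cyp2b10 is covered in part in females (37.2%) and Capn8 in part in both sexes (17.9% in males and 94.7% in females).

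Runs of neighbouring genes were singled out after their values were seen. The longest was a cluster of acyl-CoA thioesterase genes on chromosome 12. These enzymes release free fatty acids from acyl-CoA. Acot2, Acot1, Acot4 and Acot3, with Gm17673 beside them, were covered over 66.4%, 66.3%, 26.4%, 100% and 100% of their spans in the male list, and over 0% in the female list in every case. The 4 Acot genes are female-biased in the study's table. Runs of 4 genes in the male direction included C-type lectin receptor genes of myeloid cells and platelets on chromosome 6, with Clec12b at 100%, Clec1b at 67.7%, Clec9a at 67.4% and Clec1a at 29.3% in the male list and all at 0% in the female list. The casein locus on chromosome 5 held both directions. Csn1s1 and Csn1s2a were covered in the female list alone, and Csn2 in neither, while Csn1s2b just beyond them was covered over 100% in the male and 50.5% in the female list and the enamel gene Odam over 100% and 51.9%. 31 runs in the male and 10 in the female direction held 3 or more genes.

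Gene families were taken by the prefix of the symbol, so that a few members share only the prefix. Among them, the Cyp2b genes of the cytochrome P450 superfamily, which metabolise drugs and steroids, had the largest share in the male direction. 4 of 5 Cyp2b genes (80%) were covered at least 25 points more in the male list and none in the female list, against 6.66% and 2.38% of all genes. Cyp2b10 (29 kb) had 100% in the male and 37.2% in the female list, Cyp2b13 (34.7 kb) 50.8% and 0%, and Cyp2b9 (37.3 kb) 37.8% and 0%. The nearest female region was 146 kb from Cyp2b13 and 218 kb from Cyp2b9. These genes are near copies of each other. Of all 50-base stretches, the read length used, 66.2% of Cyp2b13, 75.4% of Cyp2b9 and 92.6% of Cyp2b10 occur once in the genome. Some single reads of these genes thus fit other places as well. Reads were paired, and the share left unplaced was not measured. None of the 3 met a region in the knockout lists. Of 17 Sult genes 2 were higher in the male list, the hydroxysteroid sulfotransferase gene Sult2a6 (100% against 25.9%) and Sult3a1. The median share of a Sult gene's 50-base stretches that occur once was 92.1%. It was 0% for Sult1c1, 36.4% for Sult2a2 and 57.6% for Sult2a1, so the Sult count may also rest on part of the sequence. Of 7 Fmo genes, which encode flavin-containing monooxygenases, 2 were higher in the male list, among them Fmo2 (31.4% against 0%), and none in the female list. Of the 25 Slc22 genes for organic ion transporters 5 were higher in the male and 2 in the female list. Slc22a26 was covered over 92.8% and 0%, Slc22a19 over 72.7% and 0%, and Slc22a18 over 78.2% and 36.1%, whereas Slc22a7 had 0% and 71.0% and Slc22a4 0% and 49.3%.

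Several other families of liver metabolism were free or nearly free of the mark in both sexes. The counts are to be set beside the 52.9% of all coding genes that met no region in either list. No region of either list touched any of the 15 Cyp2c, 9 Cyp2d and 6 Cyp4a genes or the 5 genes with the prefix Cyp2a (Cyp2ab1, of another subfamily, included), and 20 of 21 genes of the Mup family of pheromone carriers, 20 of 22 Serpina genes and 20 of 21 Ugt genes met none. This may rest on part of the sequence, since some 50-base stretches of these genes occur more than once in the genome. The median share of a gene's stretches that occur once was 13.8% for the Mup, 73.5% for the Cyp2c and 74.2% for the Cyp4a genes. The lowest member had 52.7% among the Cyp2c, 52.4% among the Cyp4a and 17.7% among the Cyp3a genes. Of 9 Cyp3a genes 7 met no region, a small count beside the 52.9% of all genes. None of the 9 differed by 25 points, as 6.66% and 2.38% of all genes did.

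Developmental families varied around the shares of all genes, 6.66% in the male and 2.38% in the female direction. Hox, Sox, Pax and Fox genes were below the former, and small counts of Wnt (10.5%), Fgf (10%), Tbx (14.3%) and Bmp genes (20%) were above it. All 40 Hox genes lay over 50% or more inside regions of both lists and none differed by 25 points, nor did any of the 18 Sox and 10 Pax genes. Of 42 Fox genes 1 was higher in the male list. The 19 Wnt genes, which encode secreted signals, had 2 higher in the male list, Wnt5a (94.7% against 44.3%) and Wnt2b (70.0% against 41.6%). Of 30 Fgf genes 3 were, Fgf12 (69.3% against 39.3%), Fgf10 (39.1% against 11.8%) and Fgf7 (97.9% against 65.8%). The 14 genes with the Tbx prefix had 2 higher in the male and 1 (7.14%) in the female list. Of the 2, 1 was Tbx20, a heart factor gene (93.0% against 50.8%), and the other, Tbxas1 (93.9% against 44.7%), encodes thromboxane synthase and shares only the prefix. Of 15 genes with the Bmp prefix 3 were higher in the male list, Bmper (66.9% against 27.3%), Bmp7 (92.3% against 59.6%) and Bmp10 (47.3% against 0%), and 1 (6.67%) in the female list.

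Counts in families of the cell surface, the matrix and ion channels are to be read against the same shares of all genes. 7 of 46 Col genes (15.2%) were higher in the male list, among them the basement membrane collagen genes Col4a2 (91.4% against 46.9%), Col4a4 (81.2% against 53.3%) and Col4a3 (82.5% against 56.2%), and 2 in the female list, Col3a1 (18.9% against 74.5%) and Col27a1 (12% against 38.5%). 9 of 57 Adam and Adamts protease genes (15.8%) were higher in the male and 1 in the female list, with Adamts19, on chromosome 18, at 39.6% against 5.89%, Adamts18 at 100% against 72.4% and Adamts14 at 100% against 72.7%. Of 16 Gabr genes for GABA receptor subunits, 3 were higher in the male list, among them Gabrb2 (69.1% against 24.8%) and Gabra6 (100% against 0%). Of the 94 potassium channel genes with the Kcn prefix 7 (7.45%) were higher in the male and 1 in the female list, close to the shares of all genes. Kcnq5 (564 kb) had 43.5% against 13.4%, Kcnh5 (280 kb) 82.3% against 53.9% and Kcnab1 (269 kb) 57.2% against 12.8%. None of 25 Cacn calcium channel genes differed by 25 points, 1 of 18 Scn sodium channel genes did in each direction, and of 23 Gri glutamate receptor genes 1 was higher in the female list. Cdh genes had 4 of 29 higher in the male list, including Cdh5, Cdh26 (44.4% against 13.3%) and Cdh24 (100% against 74.7%). In the Pcdh family 6 of 34 genes (17.6%) were higher in the male and 4 (11.8%) in the female list, both above the shares of all genes. In that family, Pcdh12 had 100% against 7.25% and Pcdhb3, Pcdhb4 and Pcdhb2 had 0% against 100%.

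Further families held at most 5 differing genes in a direction, to be set beside the 6.66% and 2.38% of all genes. Among semaphorin genes, 2 of 20 were higher in the male list, Sema3c (67.2% against 22.8%) and Sema6a (88.3% against 54.1%). Of 26 genes with the prefix Eph or Efn, most of which encode ephrin receptors and ephrins, Epha4 (65.8% against 20.6%) and Efnb2 (89.0% against 48.4%) were, and of 17 Slc6 transporter genes Slc6a19 (100% against 37.9%) and Slc6a18 (100% against 0%), while 1 Slc6 gene was higher in the female list. Of 23 matrix metalloprotease genes Mmp14 (50.7% against 0%) and Mmp7 (100% against 0%) were higher in the male list. The 36 chemokine genes had 5 higher in the male and 1 in the female list, among them Ccl5 (100% against 0%), Cxcl15 (66.1% against 0%) and Cxcl16 (98.1% against 71.4%). Of 85 genes with the Il prefix 4 were higher in each list. Il6 had 100% against 39.7%, Il7r 27.1% against 0% and Il1rn 26% against 0%, whereas Il10rb had 8.51% against 69.5%, Il4 41.9% against 90.3% and Il17rc 0% against 45.9%. Of 12 lipocalin genes 1 was higher in the male list, and the neighbours Lcn6 and Lcn10, which lie in a single female region (chr2:25531601-25544000), were covered in the female list alone (0% against 100% each).

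The families that follow were each below the 6.66% of all genes in the male direction. Most of their genes met no region in either list (keratin genes excepted, 23 of 99). The Zfp and keratin shares in the female direction were above 2.38%. Of 1106 Olfr odorant receptor genes 44 (3.98%) were higher in the male list, the longest being Olfr749, Olfr722 and Olfr398 (each 100% against 0%), and 14 (1.27%) in the female list, the longest being Olfr390 (0% against 39.4%), Olfr389 and Olfr544 (each 0% against 100%). In all, 923 of them met no region, as did 196 of 203 Vmn1r, 32 of 35 Tas2r and 259 of 365 Zfp genes, against 52.9% of all genes. 3 of 203 Vmn1r pheromone receptor genes were higher in the male list, Vmn1r231, Vmn1r44 (each 100% against 0%) and Vmn1r181 (57.5% against 20.5%), and no Vmn2r gene of 118 was in either. Of 35 bitter taste receptor genes Tas2r135 and Tas2r143 were covered in the male list alone, and of 41 beta-defensin genes Defb10 (84.5% against 0%) and Defb13 (82.4% against 0%) were. Zfp genes for zinc finger proteins had 19 of 365 (5.21%) higher in the male list, with Zfp365 (100% against 70.1%), Zfp874a (30.0% against 3.18%) and Zfp13 (59.4% against 32.1%), and 12 (3.29%) in the female list, with Zfp558 (0% against 26.1%), Zfp316 (24.1% against 56.7%) and Zfp677 (49.5% against 100%). Keratin and keratin-associated genes had 2 of 99 in the male direction, Krtap24-1 and Krtap31-2 (each 100% against 0%), and 3 (3.03%) in the female direction, Krtap12-1 and Krtap7-1 (each 0% against 100%) and Krtap5-2 (0% against 79.0%). The histone genes Hist1h2ac (26.8% against 0%) and Hist1h1a (37.9% against 0%) were 2 of 67. Of 143 genes with the prefix Rpl or Rps 7 (4.90%) were higher in the male list, including Rps4y2 (100% against 0%) and Rps6ka4 (100% against 44.5%), a kinase gene that is no ribosomal protein gene.

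**Figure D5:**
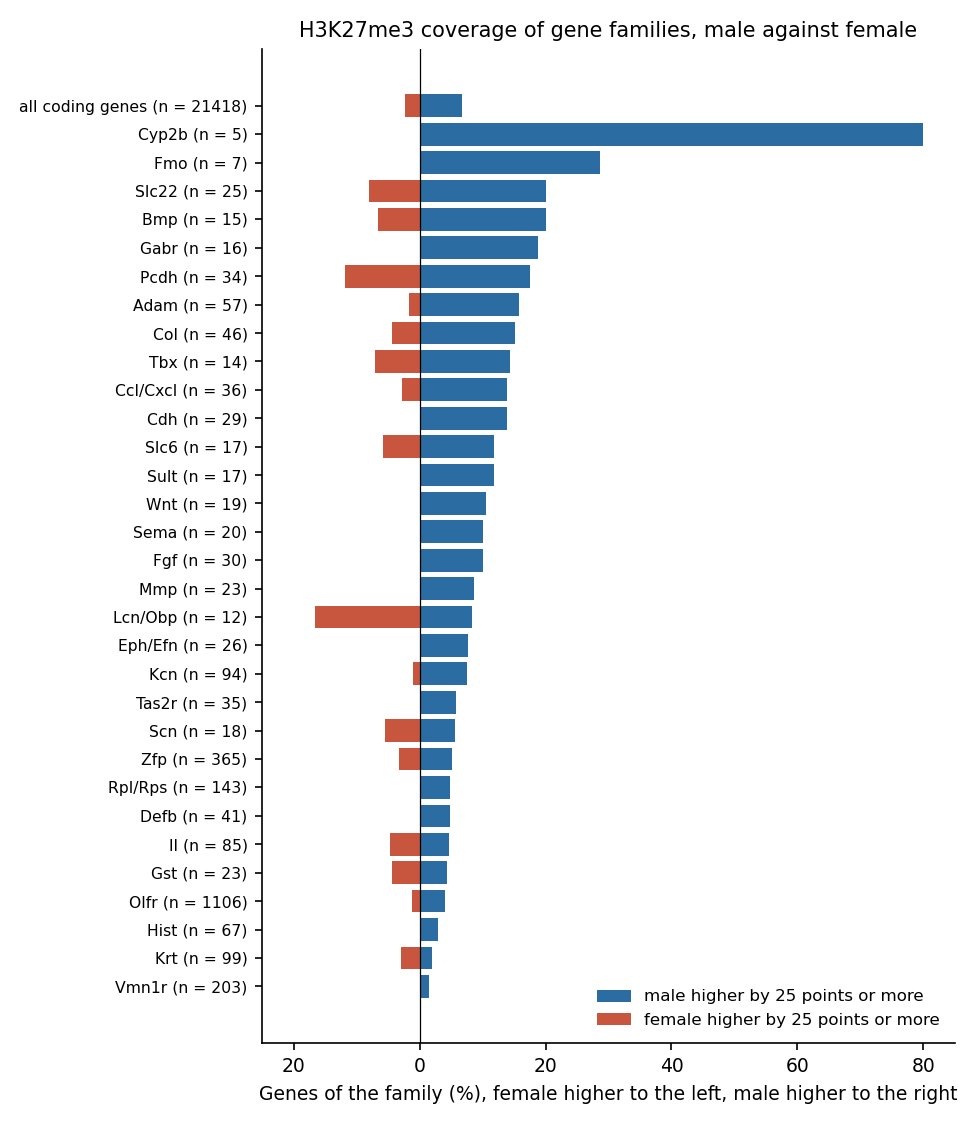
Share of the genes of each family, in percent, with H3K27me3 coverage of the gene span at least 25 points higher in the control male list (blue, to the right) or in the control female list (red, to the left), for families with 2 or more such genes and for all 21418 coding genes. Cyp2b stands out with 80% in the male direction, while Olfr, Zfp, Krt and Vmn1r lie below the 6.66% of all genes.

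Active marks at the genes were compared as a readout that coverage did not use. The 1427 genes with male excess held 917 control male and 1771 control female H3K27ac peaks, a ratio of 1.93 female peaks per male peak. The ratio was 1.49 for the 510 genes with female excess (303 male and 452 female peaks), 2.27 for the 5593 genes covered over 50% or more in both lists, 1.51 for the 11324 genes without a region, and 1.64 over all genes. Genes with male excess thus lay above the ratio of all genes and genes with female excess below it, close to genes without a region, while the genes covered in both lists had the highest ratio of the groups compared. For H3K4me1 the ratios were 0.837, 0.834, 0.833, 0.769 and 0.792 in the same order, which hardly separates the groups. A control male H3K27ac peak was present in 43.2% of genes with male excess and 44.9% of genes with female excess, and a control female peak in 55.7% and 53.9%.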

How the data were processed

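ChIP-seq of H3K27me3 was performed by the authors on 4 livers per group with 50 nt paired-end reads. Per the labels and the study's methods, reads were mapped to mm9 with Bowtie2 2.3.2, the reads of the livers of a group were combined, and regions were called with SICER 1.1 at a window of 400 bp and a gap of 2400 bp. H3K27ac and H3K4me1 peaks were called with MACS2 2.1.1. The number of reads is not given in the sources used here. The authors deposited chromosome, start and end of each region, with no height, count or p-value, so regions differ only in position and width, and a weak region counts like a strong one.

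Here, SICER ends, which lie 1 base before a window's end, were extended by 1 bp. Regions were compared by an overlap of 1 bp and by bases. Genes were the 21418 autosomal coding genes of GENCODE M1, and a gene was counted as differing at 25 percentage points of its span. Shares carry Wilson 95% intervals. No test was made, since each group is 1 list. Named genes were the 10 genes per direction that differed most (minimum length 5 kb), the 6 sex-biased genes of the study with the largest excess in the opposite sex, the widest or most divided regions, and up to 3 longest members of a family with 2 or more differing genes, of which a few are not reported here. Of the study's tables only gene symbols and their direction of bias were used. The members and lists were chosen with earlier results of these data known. Overlap and uniqueness code was tested on simulated data. Alternatives were a cover of 50%, regions joined within 10 kb, the widest 50%, equal bases, chromosome X added, a threshold of 50 points, spans extended by 3 kb, 2 kb around the start, and genes of at least 5 kb. Python 3.11.15, NumPy 2.4.6, SciPy 1.17.1 and matplotlib 3.10.9 were used. Regions of E1/E2-KO livers for the active marks were not used here.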

Additional observations from a re-analysis of the deposited data

How the results depend on the processing

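No paired analysis was possible because the lists pool the livers of a group and carry no replicate numbers. No replicate could be left out for the same reason. The male share of regions without overlap stayed above the female share under 3 of 5 alternatives, the base share under 3 of 4, divided regions under 5 of 5, and the count of genes with male excess above that with female excess under 7 of 8. With 50% of a region required to be covered, 31% of male and 13.6% of female regions were unmatched, and 473 female regions were divided. With regions joined within 10 kb, the unmatched shares were 22.9% and 11.3%, the unshared bases 24.9% and 9.47%, and the divided regions 1491 and 488. In the widest 50% of each list, these were 23.1% and 14.8%, 28.2% and 12.6%, and 1162 and 449. With equal bases, reached by dropping the narrowest male regions (9406 were left), the unmatched shares were 9.25% and 33.8%, both lists had 20.9% unshared bases, which are equal by construction, 551 female regions were divided, and 930 genes had male and 1530 female excess, 63 of the former being female-biased. By construction this removes narrow male regions, which were the least shared. Adding chromosome X gave 25.9% male and 22.0% female unshared bases, 22.1% unmatched female regions and 1180 genes with female excess. At 50 points, 660 genes had male and 281 female excess, 46 of the former being female-biased and 4 of the latter male-biased. With 2 kb around the start, 26 male-biased genes had female excess, and among genes of at least 5 kb 333 genes of any kind did. The share of female-biased genes with male excess was above that of all genes under 7 of 7 alternatives, and that of male-biased genes with female excess under 4 of 7, the exceptions being equal bases, chromosome X added and 50 points. Other counts stayed within 1.5 times of those reported. With region positions alone, depth, peak height and the spread between livers cannot be separated from the differences described.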

Other observations

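Chromosome X was left out of the comparisons above, except where its addition is named. The control male list held 50 regions there, covering 0.958 Mb, and the control female list 2608 regions, covering 97.7 Mb.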
